A study of Mus musculus with 24 samples.

Results

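The genes described here are 10 that build the microvilli of absorptive cells or link them to one another: Vil1, Espn, Pls1 and Eps8 of the actin core, Ezr, Myo1a and Myo7b, which tie or carry membrane and cargo along it, and Cdhr2, Cdhr5 and Ush1c of the adhesion complex at the tips. They were chosen by symbol, and each was found once among the 56691 genes of the count table. RNA was sequenced from distal jejunum of 24 mice in 8 groups of 3, males and females apart: wild type on regular water, wild type that drank succinate at 100 mM over 7 days, Ptk6-/- on regular water and Ptk6-/- given succinate. All mice were 9 to 11 weeks old at the end, on a C57BL/6 background, from different litters of the same colony. Ptk6-/- is a germline knockout of the tyrosine kinase PTK6, so that every cell of the tissue lacked the gene. The study asked how loss of PTK6 and succinate, a metabolite that activates tuft cells, change gene expression in each sex. The RNA came from tissue and not from sorted cells, so that fewer enterocytes and less RNA per enterocyte cannot be told apart in any level given here.

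Each enterocyte carries on its lumenal face a brush border, a dense array of microvilli of even length. A microvillus is a bundle of parallel actin filaments crosslinked by villin (Vil1), espin (Espn) and plastin-1, also called fimbrin (Pls1), with EPS8 at the growing tip, where it caps and bundles actin. Myosin-1a (Myo1a) and ezrin (Ezr) hold the bundle to the surrounding membrane. The protocadherins CDHR2 and CDHR5 reach from the tips of neighbouring microvilli and bind one another there, and they are anchored inside the tip by the scaffold USH1C (harmonin) and the motor myosin-7b (Myo7b), a set of proteins known as the intermicrovillar adhesion complex. The same architecture serves in the hair cells of the inner ear, where related cadherins form the tip links of stereocilia and myosin-7a is a motor at their anchor inside the cell.

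Because several members moved together between libraries, the stretches before their transcription starts are shown for Vil1 and Ezr, which kept together, and for Espn and Cdhr5, which kept together apart from them. RefSeq promoter windows (GRCm38.p6, from 250 bases before the start to 50 after it) were found for 8 members, with 3 start sites for Espn. None was found for Eps8 or Myo7b. The 250 bases before the start are printed 5′ to 3′ on the strand of the gene, in lower case, with capitals for letters that match a motif sought. For Espn only the start site farthest downstream is printed, the 1 of the 3 whose window held a match.
Vil1, chr1:74409134-74409383, + strand: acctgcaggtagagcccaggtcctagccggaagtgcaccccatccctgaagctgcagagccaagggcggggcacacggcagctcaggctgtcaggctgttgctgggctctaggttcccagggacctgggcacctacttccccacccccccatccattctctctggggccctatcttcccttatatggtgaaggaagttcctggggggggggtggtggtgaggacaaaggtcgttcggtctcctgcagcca
Ezr, chr17:6782781-6783030, − strand: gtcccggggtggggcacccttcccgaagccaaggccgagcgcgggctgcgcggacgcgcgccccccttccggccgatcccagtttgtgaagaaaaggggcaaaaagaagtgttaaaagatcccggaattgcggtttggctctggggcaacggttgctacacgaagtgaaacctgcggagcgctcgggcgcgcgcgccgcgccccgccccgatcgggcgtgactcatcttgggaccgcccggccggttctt
Espn, chr4:152128926-152129175, − strand: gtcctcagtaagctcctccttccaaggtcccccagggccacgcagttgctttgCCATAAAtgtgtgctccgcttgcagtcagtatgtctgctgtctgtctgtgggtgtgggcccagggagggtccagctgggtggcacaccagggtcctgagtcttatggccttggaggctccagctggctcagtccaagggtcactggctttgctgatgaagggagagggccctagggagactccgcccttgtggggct
Cdhr5, chr7:141276787-141277036, − strand: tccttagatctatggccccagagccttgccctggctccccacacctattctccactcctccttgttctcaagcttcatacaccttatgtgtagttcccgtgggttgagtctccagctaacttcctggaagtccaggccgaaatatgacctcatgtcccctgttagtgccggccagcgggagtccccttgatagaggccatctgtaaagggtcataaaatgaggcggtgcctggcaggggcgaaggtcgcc
The windows were searched on both strands for the letters of factors known to act on enterocyte genes. The CDX letters TTTATNG were found in 1 of the 10 windows, that of Espn above, as CCATAAA starting at position −197 from the start site, against 10.9% of all 32851 promoter windows. Neither the HNF4 letters CAAAGTCCA (in 0.475% of all windows) and CAAAGNNCA (6.36%, which include the first), nor the GATA letters AGATAA (11.2%), nor TATAAA (13.6%, which can share letters with TTTATNG) occurred in the 10 windows, which says only that these letters are not in these stretches.

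Libraries held 8080321 to 52824743 counts. Ptk6, the deleted gene, had 284 to 2405 counts in the 12 wild type libraries and 7 to 61 in the 12 Ptk6-/- libraries, so that each library matched its genotype label. Male wild type control replicate 1 held 51.2% and male Ptk6-/- succinate replicate 1 held 29.7% of its counts on the ribosomal RNA gene Rn18s-rs5, against 0.108 to 4.49% in the other 22 libraries. Female wild type succinate replicate 2 held a summed 17371 CPM (counts scaled to the same library size by TMM) of 7 heart muscle markers, Myh6 among them, against 16.0 to 216 in the other 23. Libraries also differed in how their counts rose or fell with gene length, given here as the slope, over expressed genes, of log2 CPM less the gene's mean on log2 length, with length read from the ratio of deposited counts to deposited FPKM. The slope lay between −0.207 and 0.234. All 16 enterocyte markers, among them the sucrase Sis and the intestinal phosphatase Alpi, were detected in each library, at a summed 19824 to 57976 CPM. This shows that each library held enterocytes, but not from which stretch of intestine, nor that other tissue was absent.

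Per length, in the deposited FPKM, Vil1 and Cdhr5 were the highest of the 10 and Eps8 the lowest. Vil1 had a mean of 494 ± 195 FPKM (SD, n = 24) and Cdhr5 451 ± 132 (SD, n = 24), and Vil1 was above Cdhr5 in 15 of the 24 libraries. Both were followed by Myo1a (322 FPKM), Ezr (267), Cdhr2 (231), Pls1 (147), Ush1c (73.6), Myo7b (36.5), Espn (27.5) and Eps8 (10.6 ± 6.67, SD, n = 24). The order was not equally firm at each step. Cdhr5 was above Myo1a, Cdhr2 above Pls1 and Ush1c above Myo7b in all 24 libraries, and Espn was above Eps8 in 23. Vil1 and Cdhr5 changed places between libraries, Myo1a was above Ezr in 18 libraries, Ezr above Cdhr2 in 16, Pls1 above Ush1c in 20 and Myo7b above Espn in 16, so that these neighbours were not separated beyond the spread between libraries. Of the adhesion complex, the protocadherin Cdhr5 thus stood above its partner Cdhr2 in FPKM in each library, and both stood above the scaffold Ush1c and the motor Myo7b. The sum of the deposited FPKM differed 7.16-fold between the highest and the lowest library, so that FPKM were used to order genes within a library, and CPM to compare libraries.

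**Figure D1:**
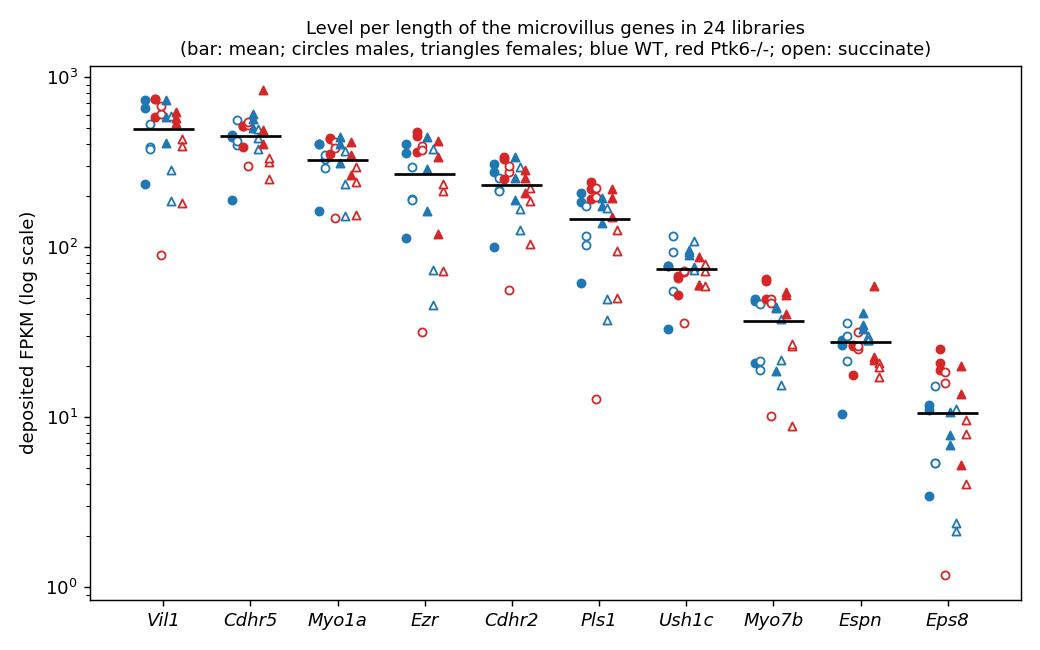
Deposited FPKM (log scale) of the 10 genes in 24 libraries, ordered by their mean (bar); circles are males, triangles females, blue wild type, red Ptk6-/-, and open symbols succinate. The mean falls from 494 FPKM for Vil1 to 10.6 for Eps8, and the ranges of neighbours overlap.

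Between libraries Eps8 varied most, from 37.3 to 414 CPM, an 11.1-fold range, followed by Ezr (9.88-fold), Myo7b (7.55-fold) and Pls1 (6.17-fold). Ush1c (2.72-fold), Myo1a (3.16-fold) and Cdhr2 (3.41-fold) varied least. Much of this spread lay inside the groups: the SD of log2 CPM within groups was 0.772 for Eps8 against 0.921 over all libraries, and 0.419 against 0.430 for Ush1c. The lowest libraries were not the same for each gene. Female Ptk6-/- succinate replicate 2 was lowest for Vil1, Myo1a, Myo7b, Cdhr2 and Cdhr5, female wild type succinate replicate 2 for Pls1, Eps8 and Ezr, and male Ptk6-/- control replicate 1 for Espn and Ush1c. Male Ptk6-/- succinate replicate 1 and female Ptk6-/- control replicate 3 were the highest libraries for Espn, at 893 and 806 CPM, and for Cdhr5, at 3525 and 3778 CPM, while their group mates lay between 209 and 347 CPM for Espn and between 1286 and 1995 CPM for Cdhr5.

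**Figure D2:**
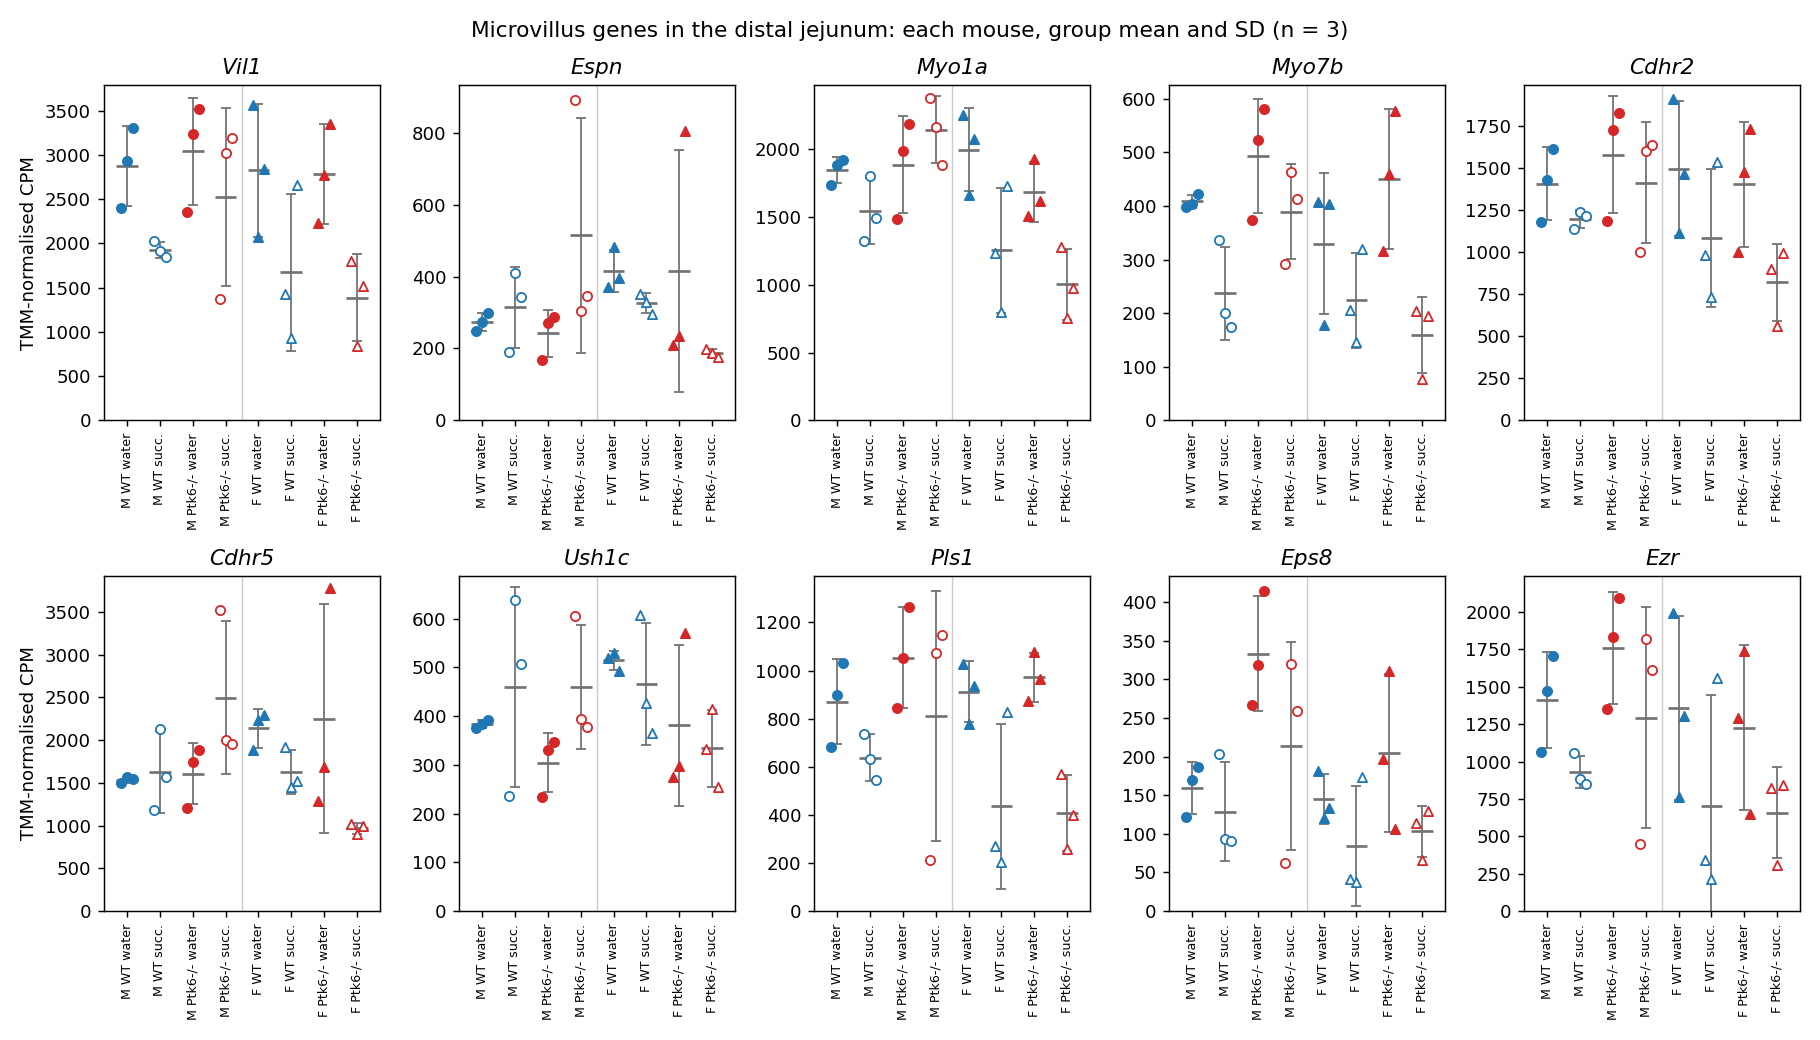
TMM-normalised CPM of each gene in each mouse (points) with the group mean and SD (bars, n = 3, cut at 0); M and F are males and females, blue is wild type, red Ptk6-/-, filled points regular water (water) and open points succinate (succ.). Eps8 is higher in all 3 male Ptk6-/- controls than in the 3 male wild type controls, and Cdhr5 in the 3 female Ptk6-/- succinate mice (897, 999 and 1015 CPM) lies below all 3 female Ptk6-/- controls.

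In male mice on regular water, loss of Ptk6 was accompanied by a higher level of Eps8 and by no called change of the other 9 genes. Eps8 was at 121, 169.6 and 186 CPM in the wild type controls and at 267, 319 and 414 CPM in the Ptk6-/- controls. The means were 159 ± 33.6 and 333 ± 74.8 CPM (SD, n = 3 each), and the lowest knockout mouse stood above the highest wild type mouse. With SE for the standard error, the log2 fold change came to 1.06 (SE 0.20, edgeR adjusted p = 0.0355), 2.08-fold. Genes are said to be called where the p adjusted over all genes tested was under 0.05, and the study's added threshold, a fold change of at least 2, was also met by Eps8. Under 11 alternative fits Eps8 was called in 4, and not with the replicate block, on log2 FPKM or with all 24 libraries in 1 fit. Of the 19218 genes tested, 4.23% were called, 2.36% higher and 1.87% lower, and 0.739% met both thresholds, and 1 call among 10 members does not set them apart from this background.

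The crosslinkers Vil1, Espn and Pls1 and the linkers Ezr and Myo1a overlapped between these groups, with log2 fold changes from −0.20 for Espn to 0.31 for Ezr. Vil1, the most abundant crosslinker, was at 2402, 2936 and 3304 CPM in wild type and 2361, 3244 and 3525 in Ptk6-/- males, and Pls1 at 682, 900.2 and 1029.9 and 844, 1051 and 1263. Their ranges overlapped, with log2 fold changes of 0.066 and 0.26. Ush1c, the scaffold of the tip complex, was at 376, 383 and 392 CPM in wild type and at 235, 329.6 and 347 in Ptk6-/- males, with no overlap, and its log2 fold change of −0.36 (SE 0.17, edgeR adjusted p = 0.230) did not pass the test. On the log2 FPKM scale, where the median over all genes was 0.25, its log2 fold change was 0.067, above 0 but below that median. Groups did not overlap for 2 of the 10 members, against 32.7% of all genes. Over the 10 members the log2 fold changes ran from −0.36 to 1.06 with a median of 0.11, beside 0.017 over all genes tested. Without Ptk6-/- replicate 3 the median was −0.0021, with 5 members above and 5 below 0, and without Ptk6-/- replicate 1 it was 0.27. With voom it was 0.20. On log2 FPKM, where the median over all genes was 0.25, it was 0.54, with all 10 above 0.

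The length slope moved with this comparison. It lay at −0.0357 to 0.00598 in wild type males on water and at 0.159 to 0.234 in Ptk6-/- males on water, without overlap, and Eps8 stands above 94.6% of the expressed genes in the count to FPKM ratio that stood for length. With an offset that removes each library's trend with length, the log2 fold change of Eps8 was 0.77 (SE 0.22, edgeR adjusted p = 0.121), so that the call was lost and the direction stayed. The enterocyte markers overlapped between the groups (32577 to 33433 CPM in wild type and 22881 to 35786 in Ptk6-/-), with 0 of 16 called by edgeR. All 7 Paneth cell markers were lower in the fit in Ptk6-/- males and 1 was called. Their sums overlapped, at 5130.4 to 14259 CPM in Ptk6-/- against 14146 to 16709 in wild type males. The 6 epithelial markers were lower in sum without overlap, 7910 to 10110 CPM in Ptk6-/- against 10676 to 12495 in wild type males, with 5 of 6 below 0 and 1 called. The sums of the tuft cell markers (35.8 to 37.4 against 38.3 to 44.0 CPM) and of the erythrocyte markers (63.5 to 91.3 against 100.2 to 127) were also lower without overlap. Of the 8 goblet cell markers, whose sums overlapped, 1 was called higher and 1 lower and 7 were without overlap, 2 higher and 5 lower, with log2 fold changes from −0.83 to 1.31. Their part in the level of Eps8 was not tested. The call of Eps8 was also lost in 4 of the 6 fits that left out 1 library, those that lacked replicate 2 or 3 of either genotype (log2 fold change 0.88 to 1.16, edgeR adjusted p up to 0.123), and kept without wild type replicate 1, the library rich in ribosomal RNA (log2 fold change 0.93, edgeR adjusted p = 0.0399). In the 4 fits that lost it the genes called, over all genes, fell from 813 to between 2 and 6.

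**Figure D3:**
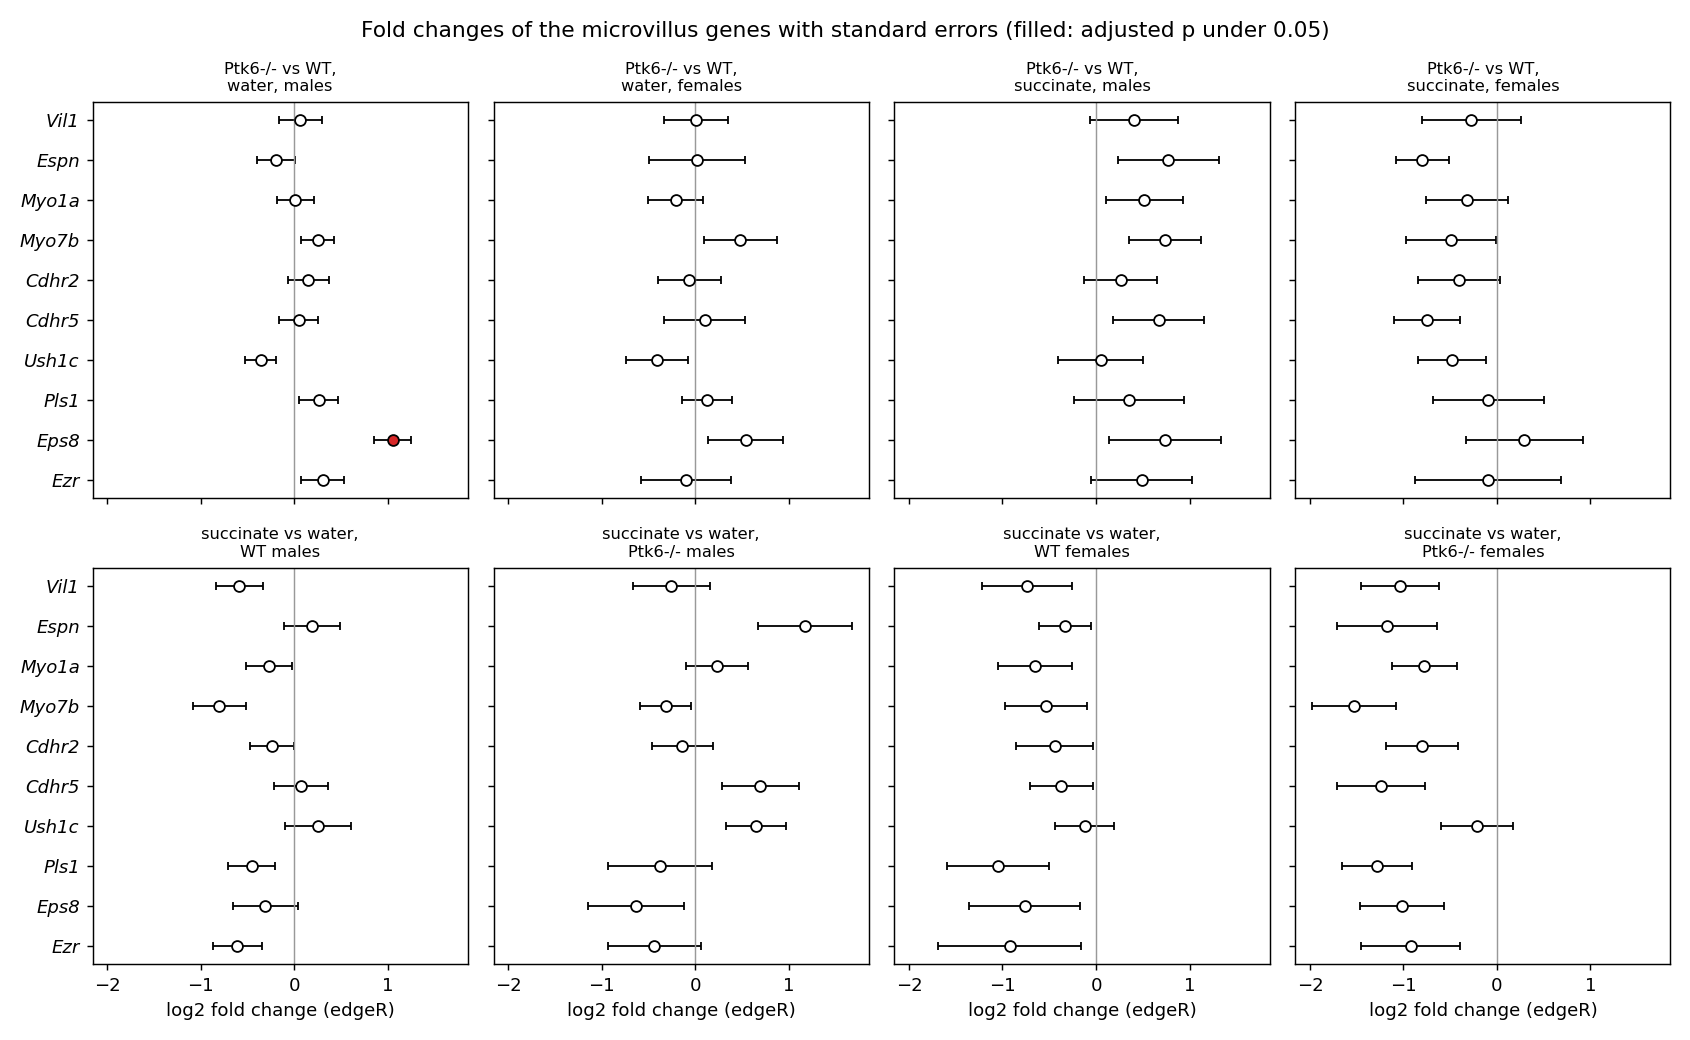
Log2 fold change (point) and standard error (bar) of each gene in the 8 comparisons of 2 groups, from edgeR; the filled point is called at an adjusted p under 0.05. Only Eps8 in control males (1.06) is called by this test, and all 10 points lie below 0 in both succinate comparisons of females.

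In females on regular water none of the 10 genes was called between genotypes by edgeR, 0 had an unadjusted p under 0.05, DESeq2 called 0 and limma-voom with sample quality weights called 1, Ush1c, and 20.7% of all genes. In the edgeR test 0.0158% of the 19035 genes were called, 0.00525% higher and 0.0105% lower. No member was without overlap between the groups, against 18.9% of genes. Eps8 was at 121, 133 and 181 CPM in wild type and at 107, 197 and 311 in Ptk6-/- females. The knockout group held both the highest and the lowest of these values, and the log2 fold change was 0.54 (SE 0.40, edgeR adjusted p = 0.631). The lowest, 107 CPM, was Ptk6-/- replicate 3, and without it the log2 fold change was 0.86 (edgeR adjusted p = 0.0597). Espn was at 371, 396 and 482 CPM in wild type and at 209, 234 and 806 in Ptk6-/- females, and Ush1c at 493, 520.2 and 530.00 and 274, 298 and 571. In each case 2 knockout mice lay below all wild type mice and 1, Ptk6-/- replicate 3, above them. Without that library Espn fell by 0.86 on the log2 scale (edgeR adjusted p = 0.0378) and Ush1c by 0.79 (edgeR adjusted p = 0.0355), and the other 8 genes were not called. That fit called 15% of all genes. Its length slope was −0.178, against 0.133 and 0.209 in its group mates, and its enterocyte markers summed to 57976 CPM, against 23271 and 31046. Between the genotypes the epithelial markers were lower in sum in Ptk6-/- females, 8125 to 13232 against 14524 to 16835 CPM, and the lymphocyte markers higher, 103 to 137 against 57.0 to 86.9, each without overlap.

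The effect of genotype was not shown to differ between the sexes for any of the 10 genes (edgeR, 0 of 10 called and 0 with an unadjusted p under 0.05, against 0% of all genes called; DESeq2 0 and voom 0). For Eps8 the difference, female minus male, was −0.51 (SE 0.47, edgeR adjusted p = 0.999), from log2 fold changes of 1.06 in males and 0.54 in females, and −0.20 without female Ptk6-/- replicate 3.

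Among mice given succinate no member was called between genotypes by edgeR. Their median lay above 0 in males, but not on log2 FPKM, and below 0 in females, and the difference between the sexes was not tested. In males all 10 log2 fold changes, Ptk6-/- against wild type, were above 0, from 0.048 to 0.77 with a median of 0.50 (all genes −0.029), but on log2 FPKM, where the median over all genes was −0.43, the members' median was −0.26 with 2 above 0. In females 9 of 10 were below 0, from −0.80 to 0.29 with a median of −0.36 (all genes −0.034). edgeR called 0 of 10 and 0% of all genes in each sex, with 0 members in males and 1 in females at an unadjusted p under 0.05. DESeq2 called 0 in each, and voom called 2 in males, Eps8 and Myo7b (beside 15.7% of all genes), and 0 in females.

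The myosin Myo1a was at 1325, 1497 and 1806 CPM in succinate-treated wild type males and at 1887, 2167 and 2381 in Ptk6-/- males, the 1 member of 10 without overlap there (against 8.83% of genes), and its log2 fold change was 0.52 (SE 0.41, edgeR adjusted p = 0.9999). Espn was at 297, 329.9 and 353 CPM in succinate-treated wild type females and at 177, 187 and 199.7 in Ptk6-/- females. Cdhr5 was at 1452, 1515 and 1922 and 897, 999 and 1015. These 2 of 10 did not overlap (against 10.5% of genes), and each knockout mouse was lower than each wild type mouse. Their log2 fold changes were −0.80 (SE 0.28, edgeR adjusted p = 0.931) and −0.75 (SE 0.36, edgeR adjusted p = 0.931). Without wild type succinate replicate 2, the library with heart muscle transcripts, they were −0.81 and −0.85, and all 10 members lay below 0 with a median of −0.58. Without wild type succinate replicate 3 the female median was −0.047 with 4 above 0, and without Ptk6-/- succinate replicate 2 it was −0.16 with 3 above 0. It was −0.08 with voom, with 4 above 0, and −0.13 on log2 FPKM (all genes 0.13), with 3 above 0. The median of the members without male Ptk6-/- succinate replicate 1 was 0.53 in males, with 9 above 0, and without replicate 2 of that group it was 0.30, with 10 above 0.

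Cell type markers, those of enterocytes among them, also separated these groups. In females given succinate the enterocyte markers summed to 29789.8 to 39322 CPM in wild type and to 19824 to 23095 in Ptk6-/- mice, without overlap, although 5 of the 16 lay above 0 and none was called by edgeR. The crypt and cycling markers were higher in sum in Ptk6-/-, 719.8 to 777 against 248 to 518 CPM, with 7 of 7 above 0, and the erythrocyte markers lower, 17.6 to 77.8 against 82.1 to 186. In males given succinate the tuft cell markers summed to 63.7 to 88.7 CPM in wild type and 32.6 to 62.6 in Ptk6-/-, the lymphocyte markers to 163 to 182 and 64.7 to 104, and the villus tip markers to 3847 to 6473 and 6906 to 7195, each without overlap. The part of these cell types in the members' levels was not tested.

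In wild type males given succinate the crosslinker Vil1, the linker Ezr and the motor Myo7b of the tip complex were lower in each succinate mouse than in each control, without a call. Vil1 was at 2402, 2936 and 3304 CPM in controls and at 1851, 1909 and 2028 after succinate. Myo7b was at 399, 404 and 423 and 174, 200.5 and 336, and Ezr at 1067, 1469.6 and 1703 and 851, 883 and 1054. The succinate values of Vil1 lie within a narrow range under the lowest control, while those of Myo7b are spread. Log2 fold changes were −0.58 (SE 0.25, edgeR adjusted p = 0.947) for Vil1, −0.80 (SE 0.28, edgeR adjusted p = 0.947) for Myo7b and −0.61 for Ezr. By edgeR 0 of 10 members and 0% of genes were called, and 2 members had an unadjusted p under 0.05. DESeq2 called 0 and voom called 5, Vil1, Eps8, Ezr, Myo7b and Pls1, all lower, beside 21.8% of all genes. Groups did not overlap for these 3 of 10 members on CPM scaled over the 24 libraries, against 4.15% of genes lower without overlap on that scale. On CPM scaled within the 6 libraries of the comparison, by which overlap is counted elsewhere, Myo1a and Cdhr2 joined them, 5 of 10 against 4.52% of genes. This is the only comparison of 2 groups in which the count for the members depended on that scale. The median log2 fold change was −0.29 (all genes 0.023). On log2 FPKM, where the median over all genes was 0.25, it was 0.047, and Myo1a and Cdhr2 turned to above 0.

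Wild type succinate replicate 1 stood apart from its group mates. It had 203 CPM of Eps8 against 92.7 and 90.7, 236 of Ush1c against 639 and 506, and a length slope of 0.182 against −0.180 and −0.137. Without it edgeR called 14.6% of all genes and 3 members: Myo7b (−1.17, adjusted p = 0.00540) and Eps8 (−0.83, adjusted p = 0.0250) lower, and Ush1c (0.53, adjusted p = 0.0484) higher. Summed enterocyte markers were 32577 to 33433 CPM in the controls and 21379 to 45751 after succinate. The tuft cell markers were higher in sum after succinate without overlap, 63.7 to 88.7 against 38.3 to 44.0 CPM, with 6 of the 8 tested higher without overlap and none called by edgeR, and so were the lymphocyte markers, 163 to 182 against 84.6 to 143. Their part in the members' levels was not tested.

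In Ptk6-/- males the genes that stood out after succinate were Espn, Cdhr5 and Ush1c, each higher in all 3 succinate mice than in all 3 controls, without a call. Espn was at 167, 271 and 289 CPM in controls and at 305, 347 and 893 after succinate. Cdhr5 was at 1204, 1739 and 1881 and 1956, 1995 and 3525, and Ush1c at 235, 329.6 and 347 and 378, 394 and 606. In each, succinate replicate 1 was far above its mates, which lay nearer to the controls. Log2 fold changes were 1.17 (SE 0.50, edgeR adjusted p = 0.6003), 0.70 (SE 0.41, edgeR adjusted p = 0.617) and 0.66 (SE 0.32, edgeR adjusted p = 0.6003). Without replicate 1, the shallowest library and rich in ribosomal RNA, they were 0.41, 0.28 and 0.32. On log2 FPKM, where the median of all genes was −0.45, Cdhr5 and Ush1c turned to −0.091 and −0.11, as did Myo1a, to −0.49.

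For Vil1, Pls1, Eps8 and Ezr the same library lay at the other end. Pls1 was at 844, 1051 and 1263 CPM in Ptk6-/- control males and at 213, 1075 and 1149 after succinate, and Eps8 at 267, 319 and 414 and 62.8, 259 and 320.02. The lowest of the succinate values belong to replicate 1. By edgeR 0 of 10 members and 0% of genes were called in this comparison, 0 members had an unadjusted p under 0.05, and DESeq2 and voom called 0. The 3 members without overlap, all higher, stand against 11.4% of genes. The median over the members was −0.19 (all genes −0.097), and 0.036 without replicate 1, with 7 above 0. On log2 FPKM it was −0.93 (all genes −0.45), with 9 below 0. The enterocyte markers of this group summed to 35839.8 to 56009 CPM, all above the 22881 to 35786 of the controls, the highest being replicate 1, and 0 of the 16 were called. The sums of the epithelial markers (11169 to 16635 against 7910 to 10110 CPM), villus tip markers (6906 to 7195 against 3856 to 6903), smooth muscle markers (2736 to 2889 against 1757 to 2714) and heart muscle markers (42.4 to 216 against 16.0 to 35.5) were also higher after succinate without overlap. Their part in the members' levels was not tested.

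In wild type females all 10 members were lower after succinate in the fit, and none was called. Log2 fold changes ran from −1.05 for Pls1 to −0.12 for Ush1c, with a median of −0.59 (all genes 0.027), and all 10 lay below 0 also on log2 FPKM. Pls1 was at 776, 934 and 1028 CPM in controls and at 205, 272 and 827 after succinate, and Ezr at 766, 1307 and 1994 and 212, 339 and 1558. In both, succinate replicates 1 and 2 were low and replicate 3 lay among the controls. Espn alone was without overlap, at 371, 396 and 482 and 297, 329.9 and 353 CPM, 1 of 10 against 13.1% of genes, with a log2 fold change of −0.33 (SE 0.28, edgeR adjusted p = 0.802). By edgeR 0 of 10 members and 0% of genes were called, 0 members had an unadjusted p under 0.05, and DESeq2 and voom called 0. Without succinate replicate 3 edgeR called Pls1 (−1.89) and Eps8 (−1.83), both lower, and 3.23% of all genes, and the median was −0.89. Without replicate 2, which held the heart muscle transcripts, none was called and the median was −0.37, with all 10 below 0. The enterocyte markers were lower after succinate without overlap, 29789.8 to 39322 against 47148 to 54746 CPM, and the tuft cell markers higher, 99.6 to 302 against 32.5 to 51.7. The epithelial markers were also lower without overlap, 7828 to 12733 against 14524 to 16835 CPM. Their part in the members' levels was not tested.

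In Ptk6-/- females 7 of the 10 genes were lower in each of the 3 mice given succinate than in any of the 3 controls, without a call by edgeR. The 7 were Vil1, Espn and Pls1 among the crosslinkers, Myo1a, and Myo7b, Cdhr2 and Cdhr5 of the tip complex, against 11% of all genes lower without overlap. Myo7b was at 316, 459.5 and 577 CPM in controls and at 77.1, 196 and 204 after succinate. Pls1 was at 874, 966 and 1077 and 256, 399 and 569. Cdhr5 was at 1286, 1689 and 3778 and 897, 999 and 1015, and Vil1 at 2226, 2776 and 3355 and 842, 1518 and 1797. The succinate values of Cdhr5 and Espn (177, 187 and 199.7 CPM) are close together, and those of Myo7b and Pls1 are spread more than 2-fold.

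None of these differences passed the test of edgeR. Log2 fold changes were −1.53 (SE 0.45, edgeR adjusted p = 0.378) for Myo7b, −1.28 for Pls1 (adjusted p = 0.378), −1.24 for Cdhr5 (adjusted p = 0.441) and −1.03 for Vil1 (adjusted p = 0.452). All 10 lay below 0, down to −0.22 for Ush1c, with a median of −1.02 (all genes −0.04). edgeR called 0 of 10 members and 0.0879% of the 19334 genes, 4 members had an unadjusted p under 0.05, DESeq2 called 2, Myo7b (adjusted p = 0.0447) and Pls1 (adjusted p = 0.0309), beside 2.29% of genes, and voom called 0. On log2 FPKM the median was −0.71 (all genes 0.15) and with voom −0.65, each with 9 below 0. Without control replicate 3, the library highest for Espn and Cdhr5, the median was −0.84 with 9 below 0, and the log2 fold change of Espn went from −1.17 to −0.27 and that of Cdhr5 from −1.24 to −0.64.

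Cell type markers, those of enterocytes among them, moved with the same groups. The 16 enterocyte markers summed to 23271 to 57976 CPM in Ptk6-/- control females and to 19824 to 23095 after succinate, without overlap, with 11 of 16 below 0 and 0 called. The 7 crypt and cycling markers summed to 297 to 685 CPM in controls and to 719.8 to 777 after succinate, also without overlap, with 6 of 7 above 0 and 0 called. The tuft cell markers summed to 33.7 to 40.5 CPM in controls and 153 to 335 after succinate. All 8 tested were higher without overlap and 2 were called, while the ninth, Il25, had too few counts to be tested. Pou2f3, Sucnr1, Il25, Gfi1b and Alox5 of the tuft list were at 0 in some of the 24 libraries, and no enterocyte marker was. The 6 epithelial markers, 8125 to 13232 against 7569.7 to 12589 CPM, and the 7 smooth muscle markers, 2105 to 4689.6 against 3749.5 to 5194, overlapped. The part of these cell types in the members' levels was not tested.

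Whether succinate acted differently by genotype was tested in each sex. In males 9 of 10 differences, Ptk6-/- minus wild type, were above 0 with a median of 0.37 (all genes −0.083). Without Ptk6-/- control replicate 1 it was 0.22 with 7 above 0. On log2 FPKM, where the median over all genes was −0.71, the members' median was −0.74 with 0 above 0. In females 9 of 10 were below 0 with a median of −0.25 (all genes −0.055). It was 0.019 on log2 FPKM, above 0 but below the 0.165 over all genes, and it turned to 0.18 with voom (all genes 0.089). It also turned, to 0.12 with 6 above 0, without wild type succinate replicate 3, and it was −0.047 with 5 above 0 without Ptk6-/- succinate replicate 2. edgeR called 0 of 10 in each sex and 0% of all genes, 0 members had an unadjusted p under 0.05, and DESeq2 and voom called 0. On simulated data edgeR called no changed gene in this interaction in males. The lack of calls there therefore cannot show that succinate acted alike in both genotypes. For Espn the difference was 0.97 (SE 0.61, edgeR adjusted p = 0.993) in males and −0.80 (SE 0.61, edgeR adjusted p = 0.836) in females. Without male Ptk6-/- succinate replicate 1 the male value was 0.21. Without female Ptk6-/- control replicate 3 the female value turned to 0.080.

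Among Ptk6-/- mice the succinate effect lay on opposite sides of 0 in the 2 sexes for Espn and Cdhr5, which were higher in each treated male and lower in each treated female than in the controls of that sex. Ush1c (0.66 in males, −0.22 in females) and Myo1a (0.23 and −0.78) also had opposite signs, each with overlap in 1 sex. The test of the difference between the sexes was added after the values were seen. Female minus male, it was −2.31 (SE 0.77, edgeR adjusted p = 0.540) for Espn and −1.90 (SE 0.61, edgeR adjusted p = 0.529) for Cdhr5, and all 10 members were below 0 with a median of −0.87 (all genes 0.0076). On log2 FPKM the median was 0.15 with 4 below 0, counted against 0 and not against the shift of all genes. On that scale the median over all genes for succinate in Ptk6-/- mice lay above 0 in females and below 0 in males. edgeR called 0 of 10 and 0% of all genes, 4 members had an unadjusted p under 0.05, and DESeq2 and voom called 0. Without male Ptk6-/- succinate replicate 1 the differences were −1.58 and −1.52, and without female Ptk6-/- control replicate 3 they were −1.42 and −1.32.

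Over the 24 libraries the members fell into 2 sets that varied together. Vil1, Cdhr2, Myo7b, Myo1a, Pls1, Ezr and Eps8 formed 1 set, with Pearson's r of log2 CPM between 0.569 and 0.952 over its 21 pairs (median 0.816, Spearman's rho 0.490 to 0.946). Espn, Cdhr5 and Ush1c formed the other, with r between 0.694 and 0.936 over 3 pairs (rho 0.679 to 0.887). Between the sets r lay between −0.578, for Eps8 and Ush1c, and 0.627, for Myo1a and Cdhr5, with a median of 0.0364. The sets, which were read from these values, cut across the known complexes: the tip protocadherins Cdhr2 and Cdhr5 fell apart (r = 0.489), as did the crosslinkers Vil1 and Espn (r = 0.112), while Vil1 and Cdhr2 were the closest pair (r = 0.952). Within groups, on deviations from the group means, the medians were 0.763, 0.843 and −0.195 for the pairs of the larger set, of the smaller set and between them. They were 0.875, 0.823 and 0.166 without the 2 libraries rich in Rn18s-rs5. These are descriptions, since the points share libraries, length trend, cell make-up and groups.

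**Figure D4:**
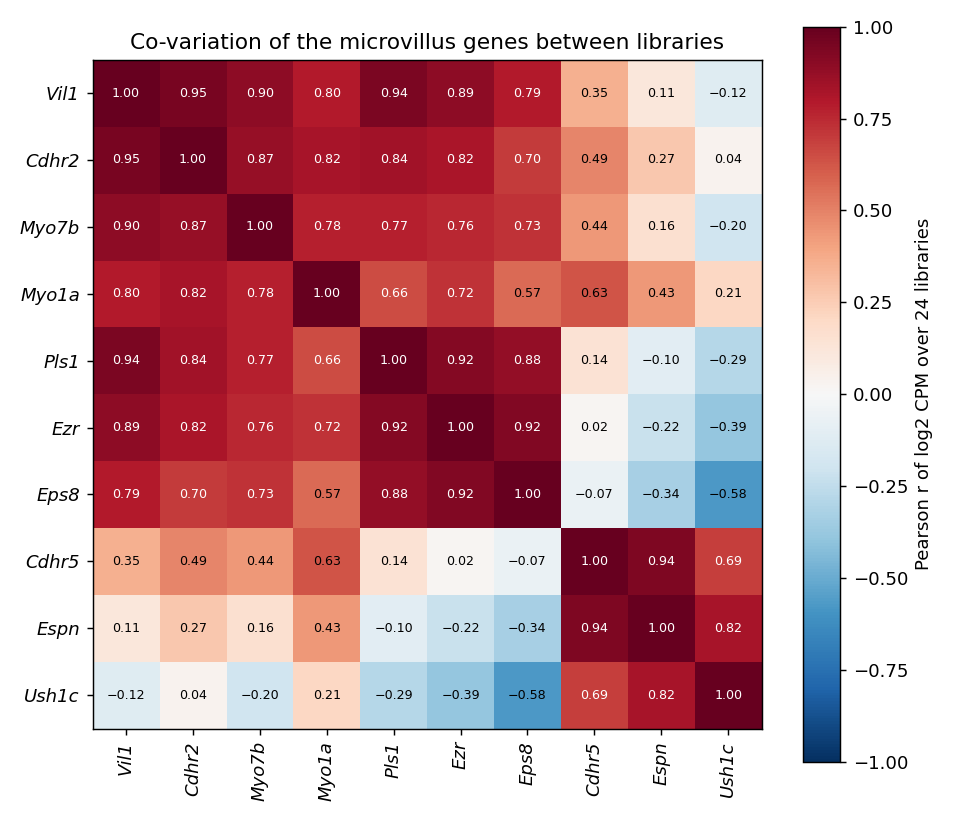
Pearson's r of log2 CPM between each pair of the 10 genes over 24 libraries (colour and number). The 7 genes at the upper left vary together (lowest r 0.569), as do Cdhr5, Espn and Ush1c at the lower right (lowest r 0.694), and the pairs across range from −0.578 to 0.627.

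Ratios of counts within a library need no scaling between libraries, and 7 were taken, chosen after the correlations were seen. The ratio of Vil1 to Cdhr2 lay between 1.27 and 2.22, a 1.75-fold range, and that of Espn to Cdhr5 between 0.139 and 0.253, a 1.83-fold range. Within the larger set the ratio of Ezr to Cdhr2 ranged 4.48-fold and that of Eps8 to Cdhr2 5.31-fold. Across the sets Cdhr5 to Cdhr2 ranged 3.69-fold, Cdhr5 to Ezr 8.79-fold and Espn to Eps8 22.7-fold, so that ratios within a set were not all narrower than those across. Espn to Eps8 had its lowest value in the male Ptk6-/- controls, at 0.626 to 0.848, against 1.60 to 2.05 in wild type males on water. The female Ptk6-/- controls, at 0.753 to 7.55, overlapped the male ones. The ratio was highest, at 14.2, in male Ptk6-/- succinate replicate 1. Vil1 to Cdhr2 was 2.04 to 2.06 in male wild type controls and 1.52 to 1.78 after succinate, and 1.86 to 1.94 and 1.27 to 1.73 in wild type females. In Ptk6-/- mice the ranges overlapped, 1.88 to 1.99 and 1.37 to 1.95 in males and 1.88 to 2.22 and 1.51 to 2.00 in females.

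Measures of the libraries moved with these sets. The length slope ran against Ush1c (r = −0.894, rho = −0.901, n = 24) and with Eps8 (r = 0.767, rho = 0.831), and without the 2 libraries of most extreme slope r was −0.866 and 0.727. For Espn it was −0.642 and for Vil1 0.393. By the count to FPKM ratio Eps8 stands above 94.6% of expressed genes, Espn above 83.2%, Ush1c above 44.4% and Cdhr5, with r = −0.431, above 26.01%. The summed enterocyte markers ran with Cdhr5 (r = 0.934, rho = 0.943) and Espn (r = 0.915, rho = 0.951), but less with Vil1 (r = 0.351, rho = 0.342) and Ezr (r = 0.0417, rho = 0.0409). Goblet cell markers (r = 0.792 and 0.791) and erythrocyte markers (r = 0.718 and 0.835) also ran with Cdhr5 and Espn. Crypt and cycling markers ran against both (r = −0.723 and −0.711). Epithelial markers ran with Ush1c (r = 0.889). The tuft cell markers ran against Myo1a (r = −0.826, rho = −0.557), Myo7b (r = −0.732, rho = −0.472) and Vil1 (r = −0.722, rho = −0.442). The Paneth cell markers ran against Eps8 (r = −0.764, rho = −0.77), and the smooth muscle markers against Eps8 (r = −0.748, rho = −0.771) and Ezr (r = −0.705, rho = −0.654). The sum of the enterocyte markers is led by Apoa1, Anpep and Fabp2, with medians of 10188, 7576 and 4660 CPM. The part of these measures in the members' levels was not tested.

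**Figure D5:**
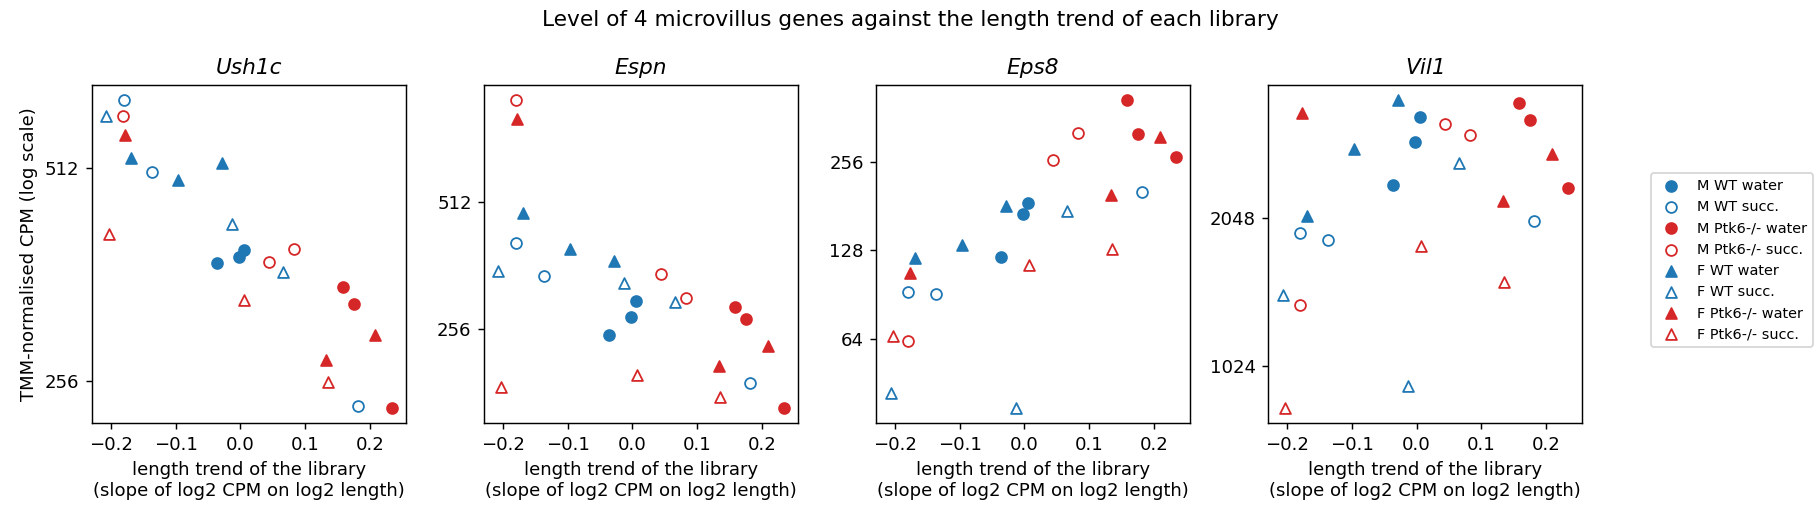
CPM (log scale) of Ush1c, Espn, Eps8 and Vil1 in each library against that library's length slope; symbols as in the plot of levels by group. Ush1c falls (r = −0.894) and Eps8 rises (r = 0.767) with the slope, and Vil1 follows it less (r = 0.393).

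The members lie on 9 chromosomes. In the positions of the deposited tables, for which the submitters' processing notes name GRCm39, they are Vil1 (chromosome 1, 74448535 to 74474718, + strand), Espn (chromosome 4, 152204788 to 152236828, − strand), Pls1 (chromosome 9, 95634695 to 95727339, − strand), Eps8 (chromosome 6, 137454243 to 137631874, − strand), Ezr (chromosome 17, 7005440 to 7050183, − strand), Myo1a (chromosome 10, 127541039 to 127556809, + strand), Myo7b (chromosome 18, 32092287 to 32170014, − strand), Cdhr2 (chromosome 13, 54849274 to 54884475, + strand), Cdhr5 (chromosome 7, 140848996 to 140856699, − strand) and Ush1c (chromosome 7, 45844774 to 45887916, − strand). Cdhr5 and Ush1c share chromosome 7 and lie far apart on it. Vil1, Myo7b and Ush1c overlap a gene on the opposite strand, and Eps8 a gene on its own strand. Counts of the overlapping genes, summed over the libraries, came to at most 2.77% of the member's own, the highest being Usp37 beside Vil1.

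Outside the set, the genes whose pattern over the 24 libraries was most like the mean of the 10 members, among 8805 genes with a mean of at least 10 CPM, were Pdlim2 (r = 0.954), Pde9a (r = 0.937), Exoc3l4 (r = 0.934), Tnks1bp1 (r = 0.934) and H2-T3 (r = 0.933). For 4 single members, picked after the values were seen, the nearest gene was Abcg5, a sterol transporter of the enterocyte, for Vil1 (r = 0.983), Cltc, the clathrin heavy chain, for Eps8 (r = 0.981), Apoa1, a lipoprotein of the enterocyte, for Ush1c (r = 0.962) and Slc51b, a bile acid transporter subunit, for Cdhr5 (r = 0.915).

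Of 29 other microvillus genes, among them the tip scaffold Anks4b, the EPS8 family, further myosins, and the kinases and partners of ezrin, edgeR called 1, in control males. This was Stk10, a kinase that phosphorylates ezrin and its relatives, at 40.4, 44.1 and 54.3 CPM in wild type and 62.8, 72.6 and 86.0 in Ptk6-/- males, with a log2 fold change of 0.66 (SE 0.15, edgeR adjusted p = 0.0481). The 1 of 29 stands against 4.23% of genes. Their median log2 fold change there was 0.29, with 12 of 29 higher and 3 lower without overlap, against 16.4% and 16.3% of all genes. After succinate in Ptk6-/- females 22 of the 29 were below 0, with a median of −0.34, and 10 were lower without overlap (against 11% of genes), none called. In wild type females 17 of 29 were below 0, with a median of −0.12.

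The terminal web is the mat of keratin, spectrin and myosin on which the microvilli stand. Of its 11 genes Krt18, a keratin of simple epithelia, was called, lower in control Ptk6-/- males at 171, 182 and 193 CPM against 274, 279 and 280.4 in wild type (log2 fold change −0.63, SE 0.12, edgeR adjusted p = 0.0356), 1 of 11 against 4.23% of genes. After succinate in Ptk6-/- females 9 of the 11 were below 0, with a median of −0.34 and a range from −1.67 to 1.66, and none was called. In wild type females 6 of the 11 were above 0, with a median of 0.008. Of 7 regulators of the brush border, Hnf4g was called, a nuclear receptor that acts with HNF4A on enterocyte genes. It was at 115, 133 and 157 CPM in wild type and 219.8, 224 and 237 in Ptk6-/- control males (log2 fold change 0.74, SE 0.13, edgeR adjusted p = 0.0310), 1 of 7 against 4.23% of genes. In each of Stk10, Krt18 and Hnf4g the groups did not overlap, as for 32.7% of all genes. With 1 library left out Stk10 was called in 1 of 6 fits and Krt18 and Hnf4g in 2 of 6 each (edgeR adjusted p up to 0.152), with log2 fold changes of 0.54 to 0.76, −0.67 to −0.58 and 0.67 to 0.83. With the length offset Hnf4g was called (0.68, edgeR adjusted p = 0.0448), and Stk10 (0.54, adjusted p = 0.106) and Krt18 (−0.26, adjusted p = 0.238) were not. None of the 3 was called on log2 FPKM or with all 24 libraries in 1 fit.

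Relatives of the members that serve other cells were followed as well. Of 10 paralogues, 7 of which had enough counts in Ptk6-/- females, 1 was called there after succinate, against 0.0879% of genes. It was Avil, the advillin of the villin family, which is also a marker of tuft cells. It was at 5.03, 5.17 and 5.83 CPM in Ptk6-/- control females and at 27.2, 48.2 and 63.2 after succinate, a log2 fold change of 3.09 (SE 0.37, edgeR adjusted p = 0.0494), while Vil1 lay at −1.03 in the same fit. With 1 library left out Avil was called in 1 of 6 fits (log2 fold change 2.81 to 3.37, edgeR adjusted p up to 0.310). In wild type females Avil was at 5.25, 6.93 and 8.16 and 18.5, 49.5 and 56.8 CPM, in wild type males at 6.91, 6.96 and 8.73 and 12.2, 12.9 and 14.4, and in Ptk6-/- males at 5.36, 5.97 and 7.68 and 2.74, 5.61 and 11.998. The last of these pairs overlapped and the others did not, and edgeR called none of the 3. The 5 hair cell counterparts, Myo7a, Cdh23, Pcdh15, Ush1g and Whrn, had 3 or 4 genes with enough counts to test in each comparison of 2 groups, and none was called by edgeR.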

How the data were processed

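Members and comparison lists were chosen with earlier results of these data known. The deposited counts per gene were made by the authors from stranded poly(A) RNA-seq with Cutadapt, HISAT2, StringTie and gffcompare, and the deposited FPKM are values the authors computed from the same reads. FPKM per gene scales with length and library, which moves between-library comparisons where few genes take many reads. Counts were scaled by TMM, filtered to at least 10 counts in 3 libraries of the fit, and tested with the quasi-likelihood test of edgeR 4.0.16 in R 4.3.3, with Benjamini-Hochberg adjustment over all genes. Tested on simulated data, the fits gave back the size of the changes put in, while no changed gene was called in the interaction of genotype and succinate in males. Of 12 comparisons, 8 set 2 groups against each other and 4 were interactions, 1 of which was added after the values were seen. Log2 fold changes are Ptk6-/- minus wild type, succinate minus control, and female minus male. Alternatives were DESeq2 1.42.0, its size factors in edgeR, no filter, a replicate block, an offset for length, limma 3.58.1 (voom with quality weights, and log2 of FPKM plus 1 or 0.1), all 24 libraries in 1 fit, and each library left out. Each sample was 1 mouse, and p-values measure the spread between mice. Named genes were the 10 members, Ptk6, at most 3 called genes of each list and comparison, those with the smallest adjusted p, and the 5 genes most like the mean of the members. The genes nearest to 4 single members, single marker genes, Rn18s-rs5 and Usp37 were named after the values were seen, and Anks4b and the hair cell counterparts only to say what a list holds. Overlap between groups was counted on CPM scaled within the libraries of each comparison, while printed CPM are scaled over all 24.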

Additional observations from a re-analysis of the deposited data

Results flagged for a closer look

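The log2 fold changes of Espn and Cdhr5 after succinate lay on opposite sides of 0 in the 2 sexes of Ptk6-/- mice, with each treated mouse on the far side of all controls of its sex. Those of Ush1c and Myo1a also had opposite signs, but with overlap in a sex. The log2 fold change of Espn was 1.17 in males and −1.17 in females, and that of Cdhr5 0.70 in males and −1.24 in females, none of them called by edgeR (adjusted p from 0.441 to 0.617). On log2 FPKM, where the median over all genes was −0.45 in males, the male value of Cdhr5 was −0.091. The interaction of sex and succinate did not pass the test for either (edgeR adjusted p = 0.540 for Espn and 0.529 for Cdhr5). Male succinate replicate 1 and female control replicate 3 set the size: without the former the male values were 0.41 and 0.28, and without the latter the female values were −0.27 and −0.64. The part of these libraries' depth, ribosomal RNA share and length slope was not tested.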

How the results depend on the processing

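The 1 member called in control males, Eps8, was called under 4 of 11 alternatives, and the count was 0 under the replicate block (edgeR adjusted p = 0.0539), the length offset (0.121), both together (0.0807), limma on log2 FPKM in 3 forms and all 24 libraries in 1 fit (0.930). With voom 1, 2 and 5 members were called for genotype in control females, genotype in succinate males and succinate in wild type males, and with DESeq2 2 were called for succinate in Ptk6-/- females. Counts over all genes also moved: in control males 813 genes by edgeR, 2973 by DESeq2, 4066 by voom, 152 with the length offset, 5 with the replicate block and 1 with all libraries in 1 fit. Same-numbered samples did not deviate together in any comparison at all 3 numbers. They did at 2 numbers for genotype on succinate in females and for succinate in wild type females. Deviations from means of 3 libraries cannot show whether same-numbered samples shared more than a number. The block changed no other member's call.

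On log2 FPKM with pseudocount 1, filtered or not, and with 0.1, the members' median was 0.54 (0.54) for genotype in control males, −0.26 (−0.26) for genotype on succinate in males, 0.047 (0.051) for succinate in wild type males, −0.93 (−0.95) for succinate in Ptk6-/- males, −0.74 (−0.74) for genotype by succinate in males, −0.53 (−0.54) for sex by genotype in controls and 0.15 (0.15) for sex by succinate in Ptk6-/-. Over all genes the median there, filtered and with pseudocount 1, was 0.25 for genotype in control males and −0.43 for genotype on succinate in males. It was 0.25 and −0.45 for succinate in wild type and Ptk6-/- males, and 0.15 for succinate in Ptk6-/- females. For genotype by succinate in males it was −0.71. Of the 10 members, 2 turned sign on that scale in each genotype comparison in controls, counted against 0 and not against these medians. For genotype on succinate 2 and 8 turned in females and males, and for succinate 0 and 2 in wild type females and males and 1 and 3 in Ptk6-/-. Those called or without overlap in the edgeR fit were Ush1c in control males, 0.067 (0.070), Myo1a for genotype on succinate in males, −0.16 (−0.17), Cdhr2, 0.16 (0.16), and Myo1a, 0.11 (0.11), for succinate in wild type males, and Cdhr5, −0.091 (−0.091), and Ush1c, −0.11 (−0.11), for succinate in Ptk6-/- males. With voom the median was −0.65 for succinate in Ptk6-/- females and 0.18 for genotype by succinate in females. The cause was not tested.

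Leaving out 1 library gave 0 to 1 members called for genotype in control males, 0 to 2 in control females, 0 to 3 for succinate in wild type males and 0 to 2 in wild type females. The members' median ran from −0.0021 to 0.27 for genotype in control males, −0.14 to 0.18 in control females, 0.30 to 0.53 and −0.58 to −0.047 for genotype on succinate in males and females, −0.42 to −0.24 and −0.89 to −0.37 for succinate in wild type males and females, −0.34 to 0.036 and −1.16 to −0.77 in Ptk6-/-, 0.22 to 0.47 and −0.56 to 0.12 for genotype by succinate in males and females, −0.23 to 0.035 for sex by genotype in controls and −1.09 to −0.73 for sex by succinate in Ptk6-/-.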
